A study of Mus musculus with 16 samples.

Results

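Il9, its receptor gene Il9r and the transcription factor gene Irf4 were followed across 16 mouse gene arrays. They are 3 of the 30920 genes with a symbol that the arrays measured, each read by 1 feature. Il9 was chosen for its large rise with ezetimibe, so its values in comparisons with Eze or Th17 arrays are a description with no test. Il9r and Irf4 were chosen by name, as the receptor of the cytokine and a factor known to act on its gene, and have no test in Eze against Th17 either.

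There were 4 groups of 4 arrays each. Per the labels, all cells were CD4 T cells from spleens of male wild-type mice of 8 weeks, with the strain spelled C54BL/6 there, cultured for 3 days. Eze cells were held under Th17 conditions with 20 µM ezetimibe, and Rsv cells under Th17 conditions with 20 µM rosuvastatin. Th17 cells had the Th17 conditions alone, and Th0 cells were not held under Th17 conditions. Ezetimibe blocks the uptake of sterols through NPC1L1, and rosuvastatin inhibits HMG-CoA reductase, the rate-limiting enzyme of cholesterol synthesis. The study's methods give the Th17 conditions as antibodies to CD3, CD28, IFN-γ and IL-4 together with TGF-β and IL-6. Its text calls the Th0 cells naïve T cells. It does not say whether Th0 cells received the antibodies to CD3 and CD28. The study's text calls the cultured cells splenocytes, and its Results give a shorter drug treatment than its methods do. For in vitro flow cytometry the methods name wild-type BALB/c mice, a strain other than that of the labels.

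IL-9 is a cytokine of Th9 cells, a subset of helper T cells that arises under TGF-β and IL-4, and Th17 cells, mast cells and type 2 innate lymphoid cells can also make it. Its receptor pairs the chain encoded by Il9r with the common gamma chain, encoded by Il2rg, and signals through JAK1, JAK3 and STAT proteins. IRF4 is a transcription factor induced by antigen receptor signals. It binds DNA with BATF and JUN proteins in T cells, and mouse T cells without it form Th17 and Th9 cells poorly.

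The Il9 feature has 15 probes and lies on the minus strand of chromosome 13, from 56479277 to 56482246 in the deposited annotation. Irf4 is on the plus strand of the same chromosome, from 30749226 to 30766927, with 28 probes. Il9r is on the minus strand of chromosome 11, from 32187541 to 32200279, with 29 probes. The probes of each feature are a set designed against transcripts of the gene, so they read its exons together and separate no isoforms. The 250 bases before the start of Il9 and of Irf4 are shown because the levels of the 2 genes did not move together. They are RefSeq sequences of GRCm38.p6, with capitals for matches to the motifs searched.
Il9, chr13:56482258-56482507, minus strand: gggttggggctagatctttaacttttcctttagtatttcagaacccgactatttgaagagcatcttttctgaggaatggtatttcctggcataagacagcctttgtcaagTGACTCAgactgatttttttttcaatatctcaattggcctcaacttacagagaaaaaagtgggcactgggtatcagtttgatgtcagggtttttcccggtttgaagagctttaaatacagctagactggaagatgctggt
Irf4, chr13:30748983-30749232, plus strand: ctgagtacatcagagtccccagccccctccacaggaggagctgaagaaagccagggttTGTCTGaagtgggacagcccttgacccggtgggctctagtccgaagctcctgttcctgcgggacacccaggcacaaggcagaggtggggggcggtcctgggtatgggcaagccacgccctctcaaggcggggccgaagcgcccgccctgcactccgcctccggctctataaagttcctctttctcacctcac

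Both strands were searched from 250 bases before to 50 bases after each start. The Il9 window held 1 match, TGACTCA, which is the AP-1 motif TGANTCA that JUN and BATF proteins bind, with its first base at -140. Of 32851 mouse promoter windows of this length, 7.81% hold TGANTCA. The Irf4 window held 1 match, TGTCTG at -192, the reverse complement of the SMAD motif CAGACA, which 21.04% of windows hold. The Il9r window held GATA matches, AGATAA at -223 and TTATCT at -30, where 11.2% of windows hold AGATAA on either strand, and TGTCTG at -216. This window was set at the start at 32200279. In RefSeq the Il9r gene reaches to 32205283, and the bases before that start were not searched. No window held the IRF motif GAAANNGAA (8.56% of windows), the ETS and IRF motif GGAANNGAA (8.24%), the adjoining IRF and AP-1 letters GAAATGANT (1.34%), the STAT motif TTCNNNGAA (8.30%) or the NFAT motif TGGAAA (21.4%).

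Values are log2 signals. The level below which a feature was taken as not well above background was the 75th percentile of the 5331 intron control features on the same array, and ran from 5.21 to 5.48. Within a group, the first value given is that of the array without a number in its label, followed by replicates 1 to 3. By their column names, these unnumbered arrays also stand apart from the numbered ones as a batch. Of all genes, 120 differed between both kinds of array, with none of Il9, Il9r and Irf4 among them (limma, adjusted p = 0.594 to 0.678). The separation of exon from intron control features, a measure of RNA and labelling quality, was 0.890 to 0.894 in Eze, 0.877 to 0.881 in Rsv, 0.876 to 0.881 in Th17 and 0.870 to 0.876 in Th0. All 9 CD4 T cell markers, among them Cd4 and Cd3e, were above background on all arrays of every group. In Eze against Th17, 6 of the 9 were lower and 1 was higher, with a median of -0.40, where 10.5% of all genes were lower and 11.2% higher. In Rsv against Th17, 4 were lower and none was higher, where 12.4% of all genes were lower and 13.6% higher. The summed level of the 9 was 12.75 to 12.84 in Eze, 12.88 to 12.99 in Rsv, 13.08 to 13.14 in Th17 and 12.75 to 12.81 in Th0. The part of these shifts in the values of Il9, Il9r and Irf4 was not tested. The study names independent experiments, fewer of them than a group has arrays. Which arrays share an experiment, mouse or culture is not stated in the sources used here, so each p-value covers the spread among the arrays and no more.

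Il9 was well above background with either drug and not without one. Its log2 signals were 10.48, 10.35, 10.45 and 10.41 in Eze. They were 7.85, 7.97, 8.12 and 8.17 in Rsv. The Th17 arrays had 4.69, 4.90, 4.68 and 4.49, and the Th0 arrays 3.48, 4.11, 3.98 and 4.02. All 4 Eze arrays stood above all Rsv arrays, and all of these stood above every Th17 and Th0 array. The 8 Th17 and Th0 values were each below the background level of their own array.

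**Figure D1:**
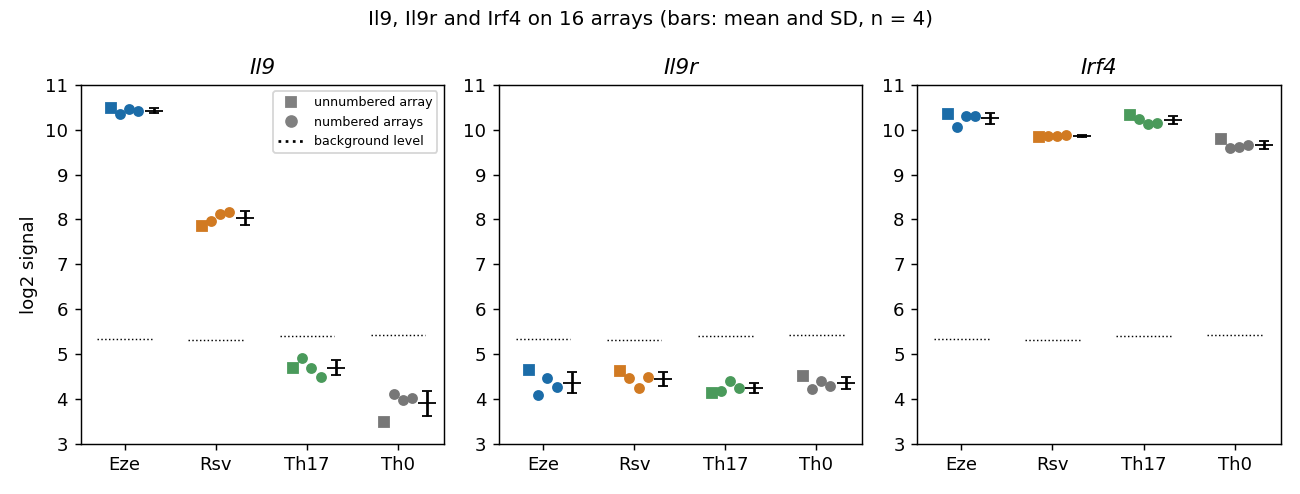
Log2 signal (vertical axis) of Il9, Il9r and Irf4 on the 4 arrays of each group, with the mean and SD beside them. Dotted lines give the mean background level of the group. Il9 lies above it only in Eze and Rsv, Il9r lies below it on all 16 arrays, and Irf4 lies between 9.59 and 10.34 throughout.

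The mean of Il9 was 10.42 ± 0.05 in Eze, 8.03 ± 0.15 in Rsv, 4.69 ± 0.17 in Th17 and 3.90 ± 0.28 in Th0 (SD, n = 4 each). The difference between Eze and Th17 was 5.73 on the log2 scale, which is the value Il9 was chosen for. Since Th17 arrays did not measure Il9 above background, this is given as at least 32.5-fold higher in Eze, with the Th17 signals raised to background. The difference between Rsv and Th17 was 3.34, or at least 6.18-fold higher in Rsv. Between the drug groups, which both measured Il9, the difference was 2.39, or 5.25-fold higher in Eze than in Rsv at the same dose of 20 µM. The molecules differ in structure and target, and no other dose was measured here. With a stricter background, the 95th percentile of 23 antigenomic control features, the bounds became at least 12.7-fold for Eze and at least 2.43-fold for Rsv against Th17.

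Rsv against Th0 was the only comparison of Il9 free of the arrays that chose it. The difference was 4.13 (SE 0.12), with an adjusted p of 1.23e-13 over 30920 genes (limma), and at least 6.11-fold higher in Rsv. In this comparison 13.4% of all genes passed as higher. All 4 Rsv arrays were higher than all Th0 arrays. In Th17 and Th0 the means of Il9 were 4.69 and 3.90, both below background, so no fold is given.

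Among all 30920 genes ranked by the difference between Eze and Th17, Il9 came first. The genes next to it were Anxa3 with 3.17, the amino acid transporter gene Slc7a3 with 3.12 and Cth, an enzyme of cysteine synthesis, with 2.93. The IL-23 subunit gene Il23a followed with 2.72, and Aldh1l2, a mitochondrial enzyme of folate metabolism, with 2.61. The rank of Il9 in the comparisons with Th17 or Th0 rests on signals below background there.

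Il9r was not measured above background in any group. Its log2 signals were 4.65, 4.08, 4.46 and 4.27 in Eze, and 4.61, 4.46, 4.24 and 4.49 in Rsv. They were 4.13, 4.17, 4.40 and 4.25 in Th17, and 4.50, 4.23, 4.40 and 4.28 in Th0. The 4 groups overlapped throughout, with means of 4.36 ± 0.24, 4.45 ± 0.16, 4.24 ± 0.12 and 4.35 ± 0.12 in Eze, Rsv, Th17 and Th0 (SD, n = 4 each). None of the 5 comparisons tested passed (limma, adjusted p = 0.203 to 0.963). The widest of the 5 differences was between Rsv and Th17, at 0.21 with a 95% interval of -0.03 to 0.45. A signal below background sets only an upper limit on the transcript, so these values do not show that its level was alike.

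Irf4 was well above background on all 16 arrays and varied far less than Il9. Its log2 signals were 10.34, 10.07, 10.30 and 10.30 in Eze, and 9.84, 9.86, 9.87 and 9.87 in Rsv. They were 10.32, 10.25, 10.14 and 10.16 in Th17, and 9.80, 9.59, 9.63 and 9.65 in Th0. Eze and Th17 overlapped, while all Rsv arrays were below all arrays of both and above all Th0 arrays. The means were 10.25 ± 0.12 in Eze, 9.86 ± 0.01 in Rsv, 10.22 ± 0.08 in Th17 and 9.67 ± 0.09 in Th0 (SD, n = 4 each).

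Irf4 was higher in Th17 than in Th0 by 0.55 (SE 0.08, limma, adjusted p = 5.68e-05), a 1.46-fold difference. In that comparison 8.50% of all genes were higher and 7.29% lower. It was 0.36 lower on the log2 scale in Rsv than in Th17, with a difference of -0.36 (limma, adjusted p = 0.00242), where 13.6% of all genes were higher and 12.4% lower. Between Eze and Rsv the difference was 0.39, or 1.31-fold higher in Eze (limma, adjusted p = 0.00126), where 13.3% of genes were higher and 15.2% lower. Of the genes changed there 46.8% were higher, or 77.2% after centring each array on its median, with which Irf4 kept its direction and its call. Against Th0, Eze was higher by 0.58 (limma, adjusted p = 2.58e-05), where 11.7% of genes were higher, a share that made up 51.7% of the changed genes, or 72.2% after centring. Rsv was 0.19 above Th0 with an adjusted p of 0.0886 (limma) and a 95% interval of 0.02 to 0.36, and that difference did not pass. It passed without the unnumbered Th0 array, at 0.24 (adjusted p = 0.0492), and also with dim genes left out of the test (adjusted p = 0.0247). Between Eze and Th17 the difference was 0.04, with a 95% interval of -0.13 to 0.20 and no test.

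The order of the levels therefore differed between Il9 and Irf4. Il9 was highest in Eze, then Rsv, with Th17 and Th0 both below background and so without an order, and with a gap of 2.18 between the lowest Eze and the highest Rsv array. Irf4 had Eze and Th17 at the top, which overlapped, then Rsv and then Th0, which differed by 0.04 between their nearest arrays. Over the 16 arrays the correlation of Il9 with Irf4 was r = 0.46, and r = -0.16 for the deviations from the group means. The arrays share 4 groups, so r describes mainly the group means.

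**Figure D2:**
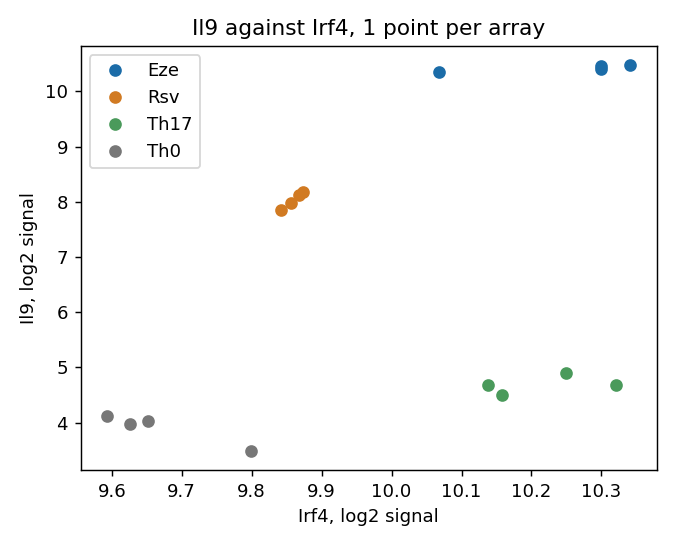
Log2 signal of Il9 (vertical axis) against that of Irf4 (horizontal axis), with 1 point for each of the 16 arrays, coloured by group. The Eze and Th17 points overlap along Irf4 while their Il9 means are 10.42 and 4.69.

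Expression was measured in whole cultures, so fewer cells of a type and less RNA per cell cannot be told apart. Other cells known to make IL-9 or IRF4 were therefore followed through their markers. All 13 mast cell and basophil markers, among them Kit, Fcer1a and Gata2, were below background on every array of Eze, Th17 and Th0. Their summed level was 6.64 to 6.71 on the log2 scale in Eze, 7.26 to 7.58 in Rsv, 6.72 to 6.87 in Th17 and 6.76 to 6.91 in Th0. In Rsv against Th17, 6 of the 13 passed as higher and none as lower, where 13.6% of all genes were higher and 12.4% lower. Of the 6, 5 were below background in both groups. The count of higher markers was 3 with centring and 3 on the numbered arrays alone. In Eze against Rsv, 8 passed as lower, 7 of them below background in both, where 15.2% of all genes were lower and 13.3% higher. In Rsv 12 of the 13 were still below background on all arrays. The exception was Cpa3, the mast cell carboxypeptidase gene, with means of 5.78 ± 0.41 in Rsv and 3.02 ± 0.15 in Th17 (SD, n = 4 each). The part of such cells in the Il9 signal of Rsv was not tested. Of 8 markers of type 2 innate lymphoid cells, 7 were below background on all Eze arrays, Il1rl1 and Gata3 among them.

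B cells also express Irf4. In Eze against Th17, 11 of 14 B cell markers passed as higher and 1 as lower, where 11.2% of all genes were higher and 10.5% lower. Of the genes changed in that comparison 51.7% were higher, or 64.1% after centring each array on its median. The summed level of the markers was 10.57 to 10.64 in Eze, 9.90 to 10.10 in Rsv, 10.31 to 10.41 in Th17 and 11.52 to 11.59 in Th0. Of the 14 markers, 4 were below background on all arrays of Eze, 7 of Rsv, 7 of Th17 and 1 of Th0. Of the 11 that passed as higher, Ms4a1, Pax5 and Fcer2a were below background in both groups. Of 6 plasma cell markers, none passed as higher and 3 as lower in Eze against Th17. Among these 3, Jchain and Sdc1 were below background in both groups. The part of B cells or plasma cells in the Irf4 signal was not tested.

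The cytokines that drive Il9 in T cells were measured as a list of 13 genes. In Eze against Th17, 5 were higher, 2 were lower and 6 did not pass, where 11.2% of all genes were higher and 10.5% lower. The median difference was 0.06 against -0.04 over all genes, and Il4 and Il1a among the 5 were below background in both groups. Tgfb1, which encodes the main TGF-β of T cells, averaged 9.47 in Eze, 9.03 in Rsv and 8.75 in Th17 (limma, adjusted p = 3.01e-07 for Eze and 0.00494 for Rsv against Th17). Il2, the growth factor of T cells, averaged 6.39 in Eze, 8.64 in Rsv and 4.31 in Th17. Th17 arrays were below background for Il2, which makes it at least 1.99-fold higher in Eze and at least 9.44-fold higher in Rsv. Il2 was 2.25 lower in Eze than in Rsv, opposite to Il9, which was 2.39 higher. Tgfb3 averaged 7.52 in Th17 and was below background in both drug groups, at least 4.59-fold lower in Eze and at least 4.63-fold lower in Rsv. Il4, the other cytokine of the Th9 pair, was below background on all Eze and Th17 arrays, at means of 5.09 and 4.46. It averaged 5.63 in Rsv and 6.61 in Th0.

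Of 15 receptor genes of these cytokines, 1 was higher, 7 were lower and 7 did not pass in Eze against Th17, where 11.2% of all genes were higher and 10.5% lower. Their median difference was -0.29. Il1r1, an IL-1 receptor gene, was below background on all Eze arrays and at least 3.08-fold lower there than in Th17. In Rsv against Th17 Il1r1 was 0.32 and did not pass (limma, adjusted p = 0.0949). Il4ra, the IL-4 receptor chain, was -0.68 in Eze (limma, adjusted p = 5.89e-07) and Tgfbr2, a TGF-β receptor, was -0.53 (adjusted p = 0.00013). Tgfbr1, the partner of Tgfbr2, was the gene that was higher, at 0.51. In Rsv against Th17, 3 were higher and 6 lower, where 13.6% of all genes were higher and 12.4% lower. The median was -0.12 against 0.06 over all genes. There 52.2% of all changed genes were higher, or 35.8% after centring each array on its median. With that centring 1 of the receptors was higher in Rsv in place of 3.

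Of 25 other transcription factors and regulators listed as promoting Il9, 5 passed as higher and 9 as lower in Eze against Th17. Of all genes, 11.2% were higher and 10.5% lower, and the median of the list was -0.09 against -0.04 over all genes. Centring the arrays on their medians gave 6 and 5, where 64.1% of all changed genes were higher in place of 51.7%. Nr1h3, below background in every group, was in the list, and whether it promotes Il9 was not checked. Batf3, which pairs with JUN proteins as BATF does, showed the largest rise of the list in Eze, with 7.31 in Eze, 6.73 in Rsv and 6.01 in Th17. That was 1.30 higher in Eze (limma, adjusted p = 8.46e-07) and 0.72 in Rsv (adjusted p = 0.000525). Notch2, a Notch receptor, was higher by 1.06 in Eze and by 0.73 in Rsv. Batf itself averaged 6.86 in Eze, 6.73 in Rsv and 6.88 in Th17, with adjusted p of 0.924 for Eze and 0.173 for Rsv against Th17 (limma).

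Several regulators listed as promoting Il9 were lower with both drugs. Stat5b, which carries signals from the IL-2 receptor, was lower by 0.61 in Eze and by 1.13 in Rsv. Smad3, a carrier of TGF-β signals, was lower by 0.40 in Eze and by 0.94 in Rsv. Rora and Hif1a were also lower with both. Gata3, the Th2 factor, averaged 5.04 in Eze, 5.69 in Rsv, 5.49 in Th17 and 7.85 in Th0. Spi1, which encodes PU.1, was below background on all Eze and Th17 arrays. Etv5, which encodes an ETS factor, had 4.97 in Eze and 4.10 in Th17, below background in both.

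**Figure D3:**
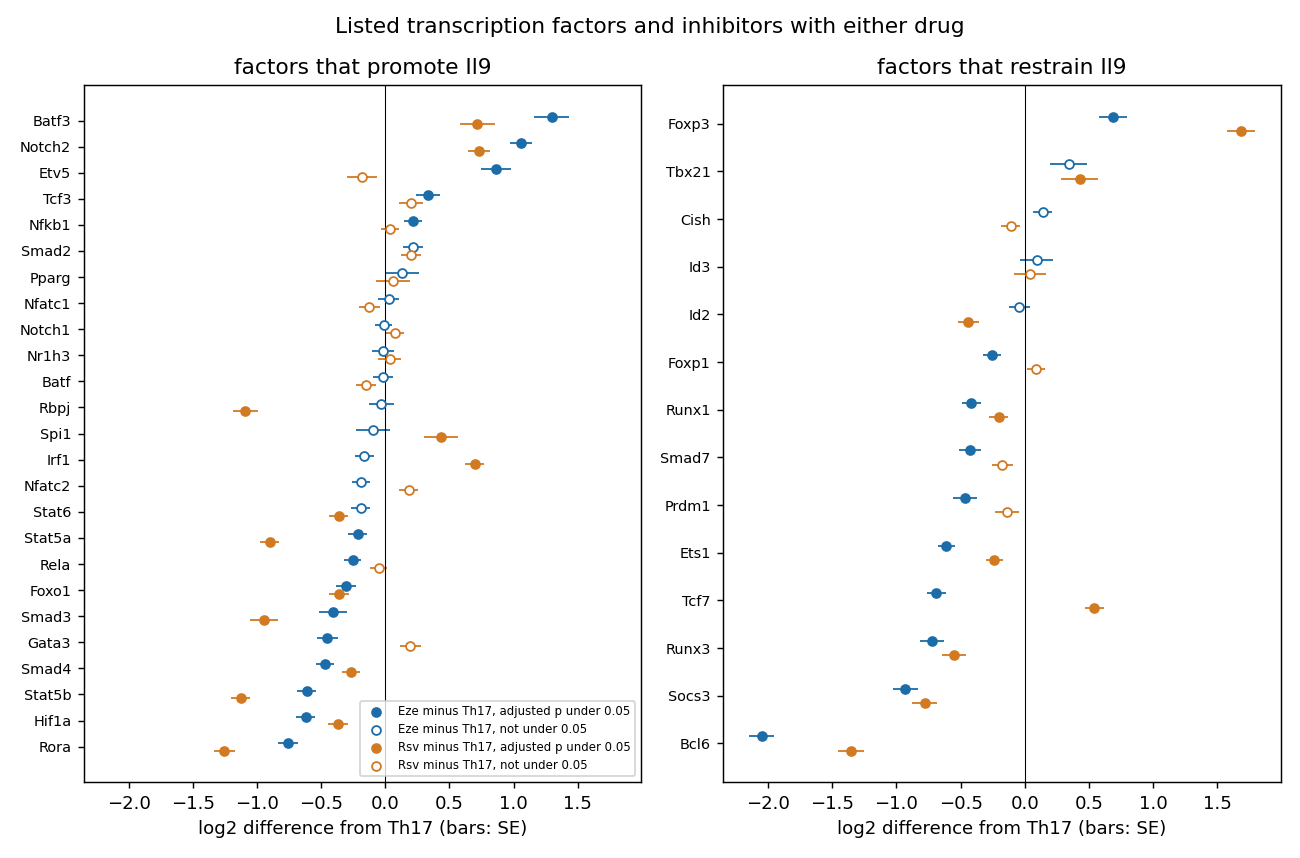
Log2 difference from Th17 with SE (horizontal axis), for Eze in blue and Rsv in orange. Shown are the 25 other factors listed as promoting Il9 and the 14 listed as restraining it. Filled points had an adjusted p under 0.05 (limma), and the largest differences were those of Bcl6 and Foxp3.

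Of 14 genes listed as restraining Il9, 1 was higher, 9 were lower and 4 did not pass in Eze against Th17. Over all genes, 11.2% were higher and 10.5% lower. The role of each listed gene at Il9 was not checked here. Their median was -0.42, and centring the arrays on their medians gave 1 and 8. In Rsv against Th17, 3 were higher and 6 lower, with a median of -0.15, where 13.6% of all genes were higher and 12.4% lower. Bcl6, the factor of follicular helper T cells, averaged 5.10 in Eze, 5.79 in Rsv and 7.15 in Th17. It was below background on all Eze arrays, at least 3.54-fold lower in Eze than in Th17, and was lower by 1.36 in Rsv (limma, adjusted p = 9.35e-09). Foxp3, the factor of regulatory T cells, was 0.69 higher in Eze and 1.69 higher in Rsv. Tcf7, which encodes TCF1, went in opposite directions, at -0.69 in Eze and 0.54 in Rsv against Th17.

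Downstream of the receptor, Il2rg was well measured in all groups, at 11.06 in Eze, 11.32 in Rsv, 11.10 in Th17 and 10.89 in Th0. Of 15 genes of the signalling path, none passed as higher and 10 as lower in Eze against Th17, against 11.2% and 10.5% of all genes. Their median was -0.35. Centring the arrays on their medians gave 1 and 7. Among the 10 were Jak3 with -0.75, Stat3 with -0.66 and Socs3, an inhibitor of cytokine signals that STAT3 induces, with -0.93. Cish and Pim1, which STAT5 induces in T cells, were at 0.14 and 0.02 with adjusted p of 0.226 and 0.887 (limma) in Eze against Th17. In Rsv against Th17, 3 were higher and 7 lower, where 13.6% of all genes were higher and 12.4% lower. The remaining receptors of the common gamma chain family were all measured, and of 7 none was higher and 3 were lower in Eze, among them the IL-7 receptor gene Il7r at -1.63.

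Irf4 was next set beside its family. Of the 8 other interferon regulatory factors, 1 passed as higher and 4 as lower in Eze against Th17, against 11.2% and 10.5% of all genes. Irf8, which is the closest relative of Irf4, averaged 7.76 in Eze, 6.75 in Rsv, 7.20 in Th17 and 8.30 in Th0. It was thus higher in Eze than in Rsv, as Irf4 was, by 1.01 (limma, adjusted p = 1.56e-07), but was higher in Th0 than in Th17. Irf1 had the opposite order between the drugs, with 6.97 in Eze and 7.83 in Rsv.

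Of 14 genes whose products act with IRF4, 2 were higher and 4 lower in Eze, and 5 were higher and 3 lower in Rsv, each against Th17. The all-gene shares are 11.2% (higher) and 10.5% (lower) for Eze and 13.6% (higher) and 12.4% (lower) for Rsv. Jun, the partner of BATF, was 0.85 lower in Eze and 0.49 higher in Rsv. Junb averaged 8.68 in Eze, 8.20 in Rsv, 8.74 in Th17 and 8.73 in Th0, and was lower by 0.54 in Rsv than in Th17 (limma, adjusted p = 4.14e-05), the comparison in which Irf4 was lower by 0.36.

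T cell genes known to depend on IRF4 mostly differed between Eze and Th17, where Irf4 itself overlapped. Of 16 such genes, Th17 had 12 at a higher and 2 at a lower level than Th0, with a median of 1.51. In Eze against Th17, 3 were higher and 12 lower, with a median of -0.63, and in Rsv 2 were higher and 10 lower, with a median of -0.48. Centring left the Eze and Rsv counts the same. Among the 30920 genes, shares passing as higher were 8.50% in Th17 against Th0, 11.2% in Eze and 13.6% in Rsv. The shares passing as lower were 7.29%, 10.5% and 12.4%, in that order. Il23r, the IL-23 receptor gene, was below background in Eze, at least 5.42-fold lower than in Th17. Maf, a factor for IL-10 and IL-21, was lower by 0.84 in Eze and by 0.51 in Rsv. The 3 that were higher in Eze were Il21, Ccr6 and Il4, of which Il4 was below background in both groups.

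Of 23 other cytokines of helper T cells, 13 passed as higher and 4 as lower in Eze against Th17, against 11.2% and 10.5% of all genes, with a median of 0.37. Of the 13, Il4, Il22 and Ifng were below background on all arrays of both groups. In Rsv against Th17, 10 were higher and 6 lower at a median of 0.15, where 13.6% of all genes were higher and 12.4% lower. Il5 and Il23a among the 10 were below background in both groups. Il23a averaged 6.51 in Eze and was below background in Th17, at least 2.15-fold higher in Eze. Csf2, which encodes GM-CSF, averaged 6.23 in Eze, 5.08 in Rsv and 4.97 in Th17. Ifng, the Th1 cytokine gene, was below background in Eze and Th17 and averaged 7.10 in Rsv. Il10, which encodes an inhibitory cytokine, was lower by 0.63 in Eze and by 0.45 in Rsv.

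The genes most like Il9 over the 16 arrays were sought among 1882 genes above background in some group whose group means spanned 1 or more on the log2 scale. The closest was Fancd2, of the Fanconi anaemia DNA repair pathway, with r = 0.98. Wdr18, Nup37, Sae1, Vac14, Enah, Melk, Bzw2 and Mcm10 were among those that followed, all with r of 0.96 or more. Nup37 encodes a nuclear pore protein, Sae1 a subunit of the SUMO-activating enzyme and Mcm10 a replication factor. Without the Eze arrays the r of the 10 closest genes with Il9 was 0.89 to 0.98. Their deviations from the group means had r of -0.20 to 0.55 with those of Il9. Their group means spanned 1.01 to 1.31, while Il9, whose Th17 and Th0 means were below background, spanned 6.52 as measured. Over all 16 arrays, 73 of the 1882 genes had r over 0.9 with Il9 and 30 had r under -0.9.

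For Irf4 the closest of 6047 genes was Il21, a cytokine gene that IRF4 is known to activate, with r = 0.97. Cysltr1, a leukotriene receptor gene, and Rap1gds1, an exchange factor of small GTPases, followed with r of 0.97 and 0.96, then Gm24622 and Lbp. The deviations of these 5 genes from their group means had r of 0.46 to 0.77 with those of Irf4. Il21 averaged 10.15 ± 0.07 in Eze, 8.85 ± 0.10 in Rsv, 9.79 ± 0.13 in Th17 and 8.25 ± 0.13 in Th0 (SD, n = 4 each). It differed from Irf4 in being higher in Eze than in Th17, by 0.36 (limma, adjusted p = 0.00615). For Il9r the highest r was 0.66, with Gm23568, which is a weak likeness to a signal below background.

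**Figure D4:**
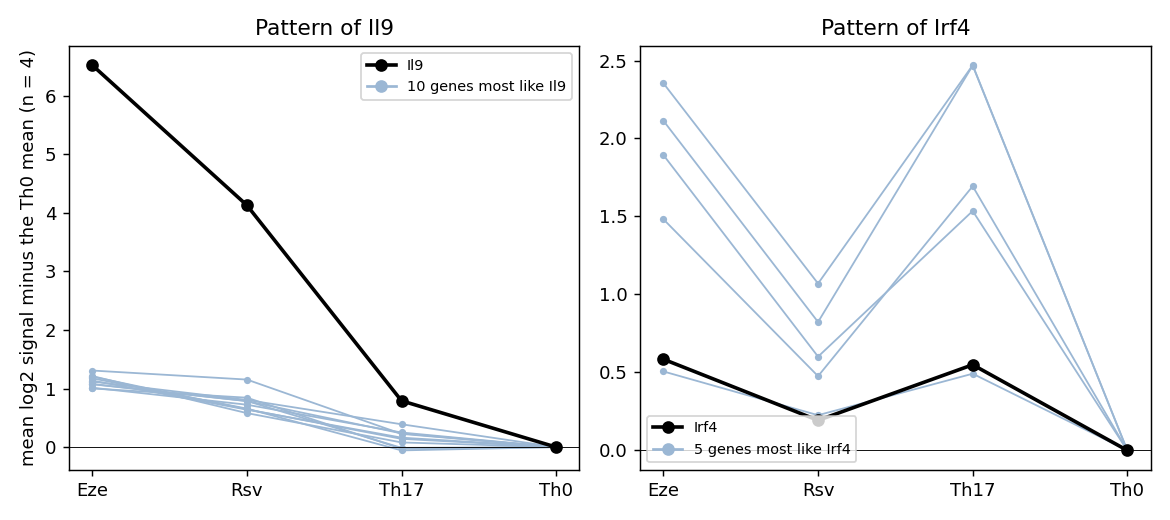
Mean log2 signal minus the Th0 mean (vertical axis, n = 4 arrays per group) for Il9 with its 10 most alike genes and for Irf4 with its 5. The 10 genes span 1.01 to 1.31 and Il9 spans 6.52 as measured, with its Th17 and Th0 means below background, while Irf4 and its genes are lower in Rsv than in Eze and Th17.

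The genes beside Il9 on chromosome 13 did not share its signal. The 3 nearest named genes on one side were Slc25a48, Cxcl14 and Neurog1, and on the other Fbxl21, Lect2 and Tgfbi, and all 6 were below background on all 16 arrays. Next to Irf4, Dusp22 averaged 6.57 in Eze, 5.65 in Rsv, 6.58 in Th17 and 6.49 in Th0, and was lower by 0.93 in Rsv than in Th17 (limma, adjusted p = 2.17e-07). Uqcrfs1, the following gene on that side, was lower by 0.45 in Rsv. On the other side Exoc2, of the exocyst complex, averaged 8.77 in Eze, 8.53 in Rsv and 9.34 in Th17, and was lower with both drugs. Near Il9r, Snrnp25 averaged 6.97 in Eze, 6.84 in Rsv, 6.86 in Th17 and 6.75 in Th0, all above background. Its start, 32205415, is 5.14 kb from that of Il9r in the deposited annotation. In RefSeq the Il9r gene reaches to 32205283, nearer to Snrnp25.

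**Figure D5:**
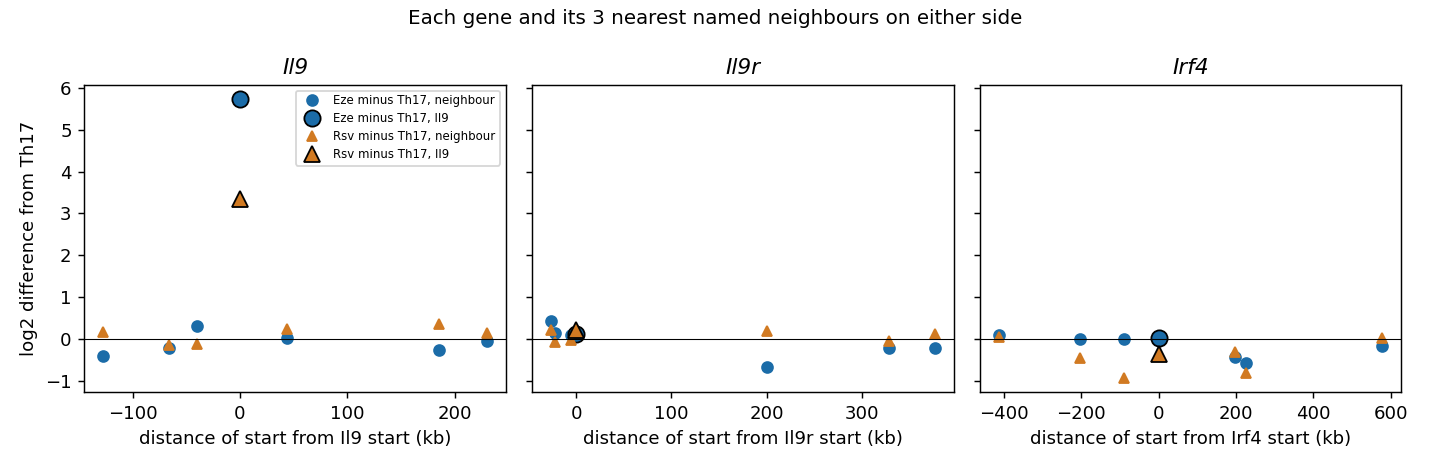
Log2 difference from Th17 (vertical axis) of Il9, Il9r and Irf4 and of the 3 nearest named genes on either side, by the distance of their start in kb (horizontal axis). Blue circles are Eze and orange triangles Rsv, with Il9 itself at 5.73 and 3.34 and the neighbours between -0.93 and 0.43.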

How the data were processed

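RNA was hybridised to MoGene-2_0-st arrays, per the column names. The authors preprocessed and quantile normalized the signals before they deposited them as log2 values, and these were used as deposited. The study's methods speak of RNA sequencing, which the files are not. The series matrix held the same values, with a largest difference of 0. Of 41345 rows, 33793 were main features and 31872 of these carried 1 symbol. Of the features of a gene, the brightest by its mean over 16 arrays was kept, which gave 30920 genes, with 657 of them read by several features. All genes were fitted together, each with its own mean in every group, with limma 3.58.1 (R 4.3.3), with Benjamini-Hochberg adjustment over all of them and a threshold of 0.05, and was tested on simulated data. Precision is limited by the 4 arrays of a group, and the median SE of a log2 difference was 0.11.

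Il9, Il9r, Irf4 and the gene lists were chosen with earlier results of these data known. Counts of list genes leave these 3 genes out. The background level was chosen after seeing the data. A fold against a group below background on all 4 arrays is a lower bound, with each signal of that group raised to its array's background. Any list gene could be named, with values where it passed a test or stood at an end of its list, or as its level alone. Further names were the 5 genes ranked next to Il9, the genes with the highest Pearson r over the arrays (10 for Il9, 5 each for Il9r and Irf4) and the 3 nearest named genes on either side. The names Batf, Cish and Pim1, and levels of genes that did not pass, were added after their values were seen. Single values of some genes that the rule allows are not reported here. Klra4 and Klra8 of the natural killer list had no row. The deposited coordinates name no build. Promoters came from RefSeq for GRCm38.p6, whose gene starts or ends match 65.6% of 25452 genes in the annotation.

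The numbers in the labels did not pair the arrays (correlations of deviations from -0.12 to 0.17). Alternatives were a replicate block, a batch block, numbered or unnumbered arrays alone, array weights, centring, the mean of a gene's features, dim genes left out, a fit of 2 groups, eBayes with trend and robust, an exact Mann-Whitney test, which is the methods' test, and leaving out each array.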

Additional observations from a re-analysis of the deposited data

Results flagged for a closer look

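In Eze, replicate 1 had the lowest Irf4 signal, 10.07, and lay apart from the other 3 arrays, at 10.30 to 10.34. Its gap was 0.846 of the group's range, above the 95% critical value of Dixon's test for 4 arrays. Of 12 sets of 4 values checked this was the only one. Chance flags about 1 in 20 sets, each taken alone, so 1 flag among 12 is not rare.

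Irf4 moved differently with the drugs. Its difference from the same Th17 arrays was 0.04 for Eze and -0.36 for Rsv, and the difference between these was 0.39 (limma, adjusted p = 0.00126), with all 4 Eze arrays above all 4 Rsv arrays.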

How the results depend on the processing

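The 6 counts of changed genes stayed within 1.5 times under every alternative run, as did the call and direction of Il9 in Rsv against Th0 and of Irf4 in Eze against Rsv, Eze against Th0 and Th17 against Th0. With the replicate block, Irf4 in Eze against Rsv was 0.39 (adjusted p = 0.00189), and no other call on Il9, Il9r or Irf4 changed. Of 16 arrays, 6 had their highest mean correlation of deviations, over the other groups, with the arrays of their own number.

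The unnumbered arrays alone, with no test, gave Irf4 in Rsv against Th17 as -0.48 and in Rsv against Th0 as 0.0435, and Il9r in Th17 against Th0 as -0.37 and in Rsv against Th17 as 0.48. Irf4 in Rsv against Th0 (0.19) passed with dim genes left out (adjusted p = 0.0247), where fewer genes were tested, with trend and robust (adjusted p = 0.0177) and by the exact two-sided Mann-Whitney test (p = 0.0286, the smallest that 4 against 4 can give). Leaving out single arrays gave 0.17 to 0.24, and it passed without the unnumbered Th0 array alone (adjusted p = 0.0492). Over all its alternatives the adjusted p ran up to 0.302. Il9r, which is below background, turned its sign in Eze against Rsv with centring (0.0722) and in Eze against Th0 with the numbered arrays alone (-0.0343). Leaving out single arrays gave -0.179 to 0.00998 for Eze against Rsv and -0.0844 to 0.104 for Eze against Th0. The causes were not tested.

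The series matrix was not run apart, since its values are the same. For Il9 in Th17 and Th0 and Il9r everywhere, signal over background limits what can be said.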

Other observations

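CD8 T cell markers stood apart in Rsv. Cd8a and Cd8b1 were both higher in Rsv than in Th17, with a median difference of 0.98, and Cd8b1 was lower in Eze. Of 8 natural killer markers, 4 were higher in Rsv and 4 lower in Eze, each against Th17, where 13.6% of all genes were higher in Rsv and 10.5% lower in Eze. Among them Ncr1 and Klrb1c in Rsv and Klrk1 in Eze were below background in both groups compared. The summed level of the 8 was 7.96 to 8.18 in Eze and 8.39 to 8.51 in Th0. It was 9.21 to 9.66 in Rsv and 9.47 to 9.57 in Th17, which overlapped. Of 12 myeloid markers, 6 were higher in Rsv than in Th17 and 1 was lower, where 12.4% of all genes were lower. The lower one was Cd68, at -1.52. Of the 6, Lyz2 was at least 2.10-fold higher and the other 5 were below background in both groups. The summed level of the 12 was 8.36 to 8.63 in Rsv and 8.70 to 8.86 in Th17. In Rsv 10 of the 12 were below background on all arrays. Il9 was higher in both drug groups, and the part of these cells in it was not tested.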
